A study of Homo sapiens with 18 samples.

Results

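Transcript levels of 39 lysosome and autophagy genes were followed in 2 oestrogen receptor-positive breast cancer cell lines treated with a CDK4/6 inhibitor. The genes were taken from a fixed list of lysosomal membrane proteins, hydrolases, lipid-handling proteins, proton pump subunits, autophagy adaptors and the transcription factors TFEB and TFE3, by name and not by a threshold on their values. The list was chosen with earlier results of these data known. All 39 were found among the 60656 gene rows of the count table. CAMA-1 and ZR-75-1 are established luminal cell lines, here the parental cells of wild-type genotype, grown in serum-containing RPMI medium. Each line received abemaciclib at 500 nM, palbociclib at 500 nM or the same volume of the solvent DMSO for 5 days, with 3 libraries in each of the 6 groups and 18 libraries in all. Both drugs bind the ATP pocket of CDK4 and CDK6 and both are weak bases, a class of compound that can collect in acidic compartments such as lysosomes. Every group comes from 1 cell line in culture, so a difference between the lines is a difference between 2 lines only.

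Lysosomes are acidic organelles in which hydrolases break down proteins, glycans and lipids delivered by endocytosis or by autophagy, the process that encloses cytoplasm in a double membrane and fuses it with the lysosome. A proton pump, the V-ATPase, keeps the lumen acidic, and membrane glycoproteins such as LAMP1 and LAMP2 line it. Many of these genes carry the CLEAR motif in their promoters, a palindrome that TFEB and TFE3 bind. These factors are held in the cytoplasm by mTORC1 on the lysosomal surface and move to the nucleus when lysosomes are stressed or nutrients are scarce, a step that their own transcript levels do not report.

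The promoters of several members carried this motif, and these stretches are shown because the results below include the members that carry them. RefSeq promoter windows of GRCh38.p14, from 250 bases before to 50 after each start site, were matched by symbol for 30 of the 39 members. Both searched motifs read the same on either strand. The CLEAR core, TCACGTGA, lay in a window of 5 of the 30 members (16.7%), which were LAMP1, GAA, ATP6V0D1, CTSA and MCOLN1, and in 1.18% of the 27305 genes of the promoter table. The E-box core within it, CACGTG, lay in a window of 9 of the 30 members, the 5 above and CD63, CTSD, CTSF and NEU1, against 8.78% of genes. These are matches of letters and were not tested as binding sites. In the sequences below, written 5′ to 3′ on the strand of the gene, capitals mark the CLEAR core where it is complete and otherwise the E-box core. A second CLEAR core of LAMP1, at -2 from the start site, runs into the first exon and is not printed. A second CLEAR core of GAA, at -32, and that of CTSA, at -26, also overlap an annotated exon and are not printed.
LAMP1, chr13:113297027-113297122, plus strand, 4 E-box cores: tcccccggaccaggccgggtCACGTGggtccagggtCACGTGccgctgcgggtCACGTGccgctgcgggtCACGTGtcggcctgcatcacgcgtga
LAMP1, chr13:113297190-113297237, plus strand, CLEAR core at -29 from the start site: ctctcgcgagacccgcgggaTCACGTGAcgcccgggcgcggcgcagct
GAA, chr17:80101484-80101531, plus strand: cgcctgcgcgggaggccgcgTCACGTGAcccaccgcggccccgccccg
ATP6V0D1, chr16:67481190-67481237, minus strand: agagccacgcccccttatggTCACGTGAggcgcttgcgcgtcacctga
MCOLN1, chr19:7522562-7522623, plus strand, 2 CLEAR cores: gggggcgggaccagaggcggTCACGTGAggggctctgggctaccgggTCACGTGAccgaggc
CTSD, chr11:1763965-1763994, minus strand: ccgcgcacgccggccgcgccCACGTGaccg
NEU1, chr6:31862922-31862967, minus strand: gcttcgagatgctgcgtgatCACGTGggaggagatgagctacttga

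Libraries held 2308442 to 4146549 counts, of which 12504 to 27606 fell on the 39 members, so 3 counts corresponded to 0.723 to 1.30 CPM. CPM is a gene's count divided by its library's total, in the usual counts-per-million unit, with totals scaled by TMM over all 18 libraries. The values for 3 counts and the marker sums below use unscaled totals. Reads come from the 3′ end of transcripts, so that no level is set against that of another gene. Markers of luminal epithelium were present in every group (8 of 8, summed level 5198 to 7307 CPM). Of 14 markers of stromal, endothelial and blood cells, 3 to 9 had a count in a group, with a summed level of 17.4 to 40.9 CPM that came mostly from COL1A1. CD3E and CDH5 were at 0 throughout and PTPRC and PECAM1 reached 3 counts at most. The share of counts on mitochondrial genes differed with treatment in CAMA-1, where DMSO libraries held 15.8% ± 0.866 (SD, n = 3), abemaciclib libraries 24.8% ± 1.37 and palbociclib libraries 23.6% ± 1.15. It was 19.0% to 20.2% in the group means of ZR-75-1. Its part in the results was not tested beyond removing those genes. With them removed, 18 members were called with abemaciclib in CAMA-1 and 16 with palbociclib, against 18 and 15 with them kept. In bulk libraries, fewer cells of a given state and less RNA per cell cannot be told apart.

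The first question was whether the members moved with each drug. In ZR-75-1 they rose broadly. Of 35 members with enough counts to test, 27 rose with abemaciclib (77.1%) and 24 with palbociclib (68.6%), against 17.9% and 14.5% of all 11017 genes tested. No member fell with either drug, where 18.3% and 13.4% of all genes fell. At an unadjusted p under 0.05, 1 member was lower with abemaciclib and 0 with palbociclib, and DESeq2 also called 0 lower with either. Without DMSO replicate 3, 25 of 26 called members were higher with abemaciclib, and without abemaciclib replicate 3, 27 of 28. The remaining call was lower each time. The median log2 fold change of the members was 0.68 with abemaciclib and 0.50 with palbociclib, while the median of all genes was -0.004 and -0.008. In CAMA-1, 16 of 35 members rose with abemaciclib (45.7%) and 12 with palbociclib (34.3%), against 20.3% and 18.4% of 11053 genes. There, 2 fell with abemaciclib and 3 with palbociclib, against 20.1% and 18.7% of genes. The CAMA-1 median was 0.35 with abemaciclib and 0.20 with palbociclib, with a median over all genes of 0.01 and 0.001. A gene was called at a Benjamini-Hochberg adjusted p under 0.05 in edgeR's quasi-likelihood test, and within a line both drugs were compared with the same DMSO libraries.

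The summed counts of the 39 genes followed the same division. They made up 0.491% ± 0.0169 of counts in ZR-75-1 with DMSO (SD, n = 3), 0.749% ± 0.0295 with abemaciclib and 0.749% ± 0.00904 with palbociclib. CAMA-1 libraries with DMSO had 0.507% ± 0.00383 of their counts on these genes, those with abemaciclib 0.537% ± 0.0206 and those with palbociclib 0.530% ± 0.0192. The ZR-75-1 drug groups lay above their DMSO libraries without overlap, as did the abemaciclib group of CAMA-1, though by less, while its palbociclib group overlapped DMSO. These shares are of totals that include the mitochondrial counts, whose share was higher in both CAMA-1 drug groups. CD63 alone supplied 27.8% of the members' counts and CTSD 11.6%. CTSD weighs on the ZR-75-1 sums, with 1584, 1597 and 1532 counts with DMSO. It held 3142, 3239 and 2622 counts with abemaciclib and 5966, 4770 and 5513 with palbociclib.

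**Figure D1:**
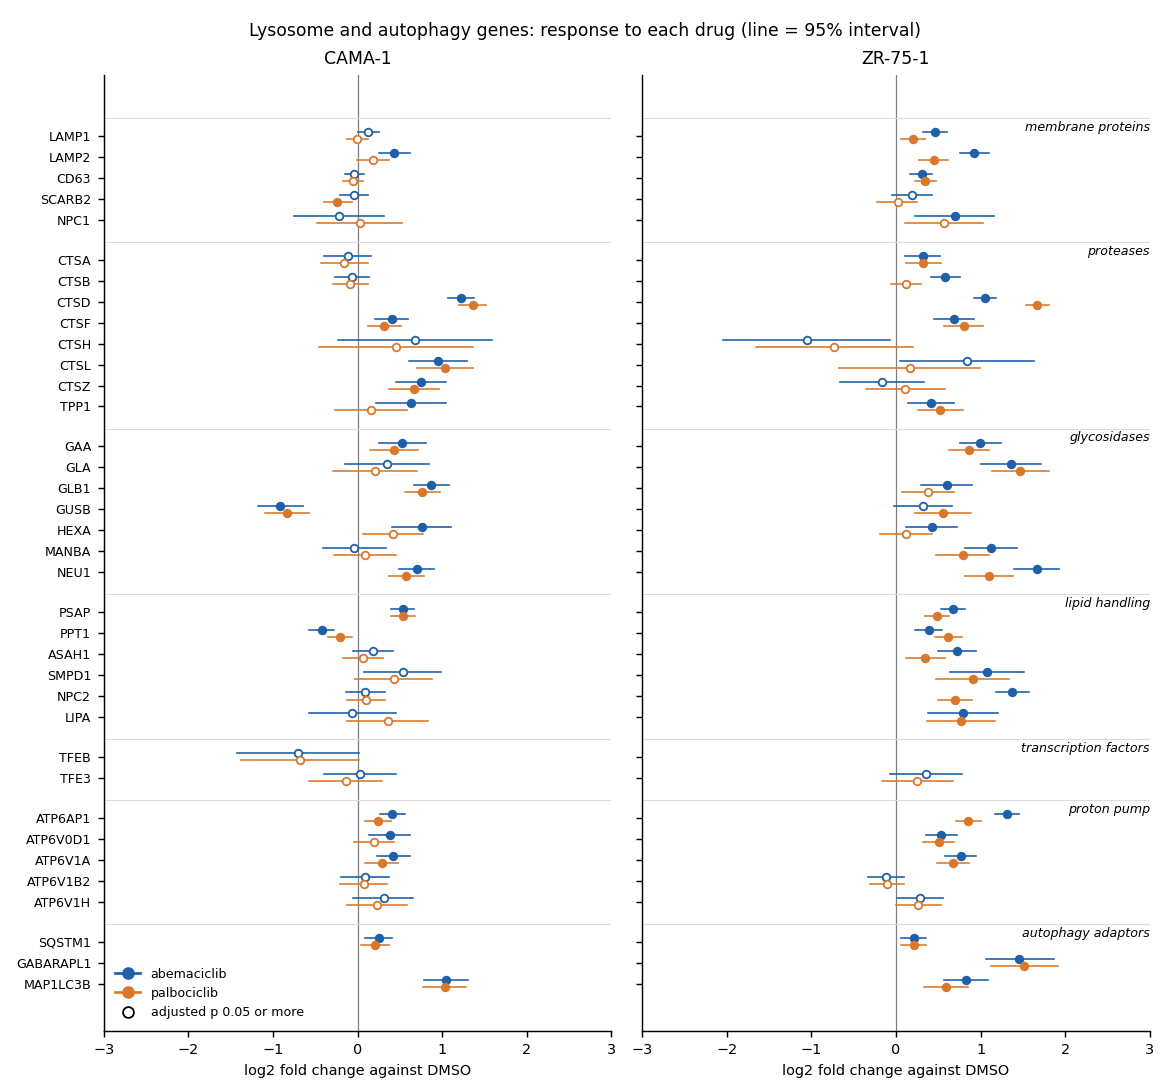
Log2 fold change against DMSO of each tested member, by role, in CAMA-1 (left) and ZR-75-1 (right). Blue is abemaciclib and orange palbociclib, lines are 95% intervals, and filled points passed an adjusted p of 0.05. In ZR-75-1 all filled points lie to the right of 0, whereas in CAMA-1 GUSB and PPT1 lie to the left with both drugs and SCARB2 with palbociclib.

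Of the members, 9 rose in all 4 comparisons with DMSO. They were the proteases CTSD and CTSF, the glycosidases GAA and NEU1, the saposin precursor PSAP, the pump proteins ATP6AP1 and ATP6V1A, and the adaptors SQSTM1 and MAP1LC3B. A further 11 members rose with both drugs in ZR-75-1 and with neither in CAMA-1, namely ASAH1, CD63, CTSA, GABARAPL1, GLA, LAMP1, LIPA, MANBA, NPC2, PPT1 and SMPD1, of which GABARAPL1 had too few counts to test in CAMA-1. The reverse held for CTSL and CTSZ, which rose with both drugs in CAMA-1 and passed with neither in ZR-75-1. These groupings are counts of calls; whether a member's response differed between the lines was tested separately below. ATP6V1B2, ATP6V1H, CTSH and TFE3 passed in none of the 4 comparisons, and TFEB passed in neither CAMA-1 comparison.

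Among the proteases, CTSD, the aspartic protease cathepsin D (chr11:1752752-1764573, minus strand), rose most. In CAMA-1 its level was 174, 161 and 162 CPM with DMSO, 430, 396 and 359 CPM with abemaciclib and 429, 398 and 474 CPM with palbociclib. In ZR-75-1 it was 519, 490 and 529 CPM with DMSO, 1042, 1125 and 1035 CPM with abemaciclib and 1674, 1617 and 1624 CPM with palbociclib. In both lines every drug-treated library stood above every DMSO library of that line, and in ZR-75-1 palbociclib stood above abemaciclib. The log2 fold change was 1.23 (SE 0.078, adjusted p = 6e-17) and 1.36 in CAMA-1, and 1.05 and 1.67 (SE 0.066, adjusted p = 2.9e-28) in ZR-75-1, for abemaciclib and palbociclib in turn. CTSD is a well-known oestrogen-induced gene as well as a lysosomal one, and an annotated gene on its strand shares the last 1000 bases of its 3′ end.

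CTSL, a cysteine endopeptidase, rose in CAMA-1. Its level there was 21.1, 19.1 and 14.7 CPM with DMSO, 36.3, 33.5 and 36.9 CPM with abemaciclib and 34.9, 35.6 and 43.5 CPM with palbociclib, without overlap. The log2 fold change was 0.95 (adjusted p = 9.7e-06) and 1.03 (adjusted p = 1.7e-06). ZR-75-1 held little of it, at 2.62, 5.83 and 4.49 CPM with DMSO, 6.97, 9.38 and 7.10 CPM with abemaciclib and 3.09, 5.43 and 6.19 CPM with palbociclib, and neither difference passed. CTSF, another cysteine cathepsin, was at 77.0, 67.3 and 76.1 CPM with DMSO in CAMA-1, 99.3, 103.0 and 97.5 CPM with abemaciclib and 95.5, 91.0 and 93.9 CPM with palbociclib. In ZR-75-1 it was at 42.9, 43.9 and 41.8 CPM with DMSO, 72.3, 68.8 and 66.7 CPM with abemaciclib and 76.0, 76.6 and 72.2 CPM with palbociclib. All 4 rises of CTSF were free of overlap, with log2 fold changes of 0.41, 0.31, 0.69 and 0.80 in the same order, and the palbociclib rise in CAMA-1 failed when DMSO replicate 2 was left out (0.26, adjusted p = 0.057).

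Other proteases passed in fewer comparisons. CTSZ, a carboxypeptidase whose 3′ end overlaps NELFCD on the opposite strand, rose in CAMA-1 by 0.75 and 0.66 on the log2 scale and stood at -0.17 and 0.11 in ZR-75-1, where neither value passed. TPP1, a tripeptidyl peptidase, rose with abemaciclib in CAMA-1 (0.64) and with both drugs in ZR-75-1 (0.41 and 0.52). Its abemaciclib calls were not made by DESeq2 and were lost without replicate 1 of DMSO or of abemaciclib in either line. CTSA, the protective protein that stabilises GLB1 and NEU1 and overlaps PLTP on the opposite strand, rose in ZR-75-1 only narrowly (0.32 with each drug, adjusted p = 0.012), and both calls were lost without DMSO replicate 1, the palbociclib call also without palbociclib replicate 3. CTSB, the most studied cysteine cathepsin, rose with abemaciclib in ZR-75-1 (0.58, adjusted p = 2e-07) and stood at 0.12 with palbociclib, which did not pass. CTSH, an aminopeptidase, was sparse at 1.34 to 7.06 CPM and passed nowhere.

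Glycosidases strip sugars from glycoproteins and glycolipids. NEU1, the lysosomal sialidase (chr6:31857659-31862905, minus strand), was at 54.6, 60.3 and 60.7 CPM with DMSO in CAMA-1, 94.5, 101 and 96.8 CPM with abemaciclib and 87.8, 84.8 and 94.9 CPM with palbociclib. In ZR-75-1 it was at 23.9, 25.5 and 24.9 CPM with DMSO, 84.6, 75.7 and 75.8 CPM with abemaciclib and 50.2, 49.8 and 59.8 CPM with palbociclib. The groups did not overlap with DMSO in either line. For abemaciclib its log2 fold change was 0.70 in CAMA-1 (adjusted p = 3.7e-07), below the 1.66 of ZR-75-1 (SE 0.135, adjusted p = 1.7e-15). For palbociclib it was 0.57 against 1.10, so that the line with the lower starting level showed the larger fold.

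GAA, which degrades glycogen, was at 32.9, 31.8 and 29.2 CPM with DMSO in CAMA-1, 52.7, 40.8 and 43.4 CPM with abemaciclib and 42.8, 42.4 and 43.5 CPM with palbociclib. In ZR-75-1 it was at 48.1, 51.5 and 45.3 CPM with DMSO, 113, 89.96 and 86.8 CPM with abemaciclib and 85.3, 101 and 79.2 CPM with palbociclib. Each drug group lay above DMSO, by 0.53, 0.43, 1.00 and 0.86 on the log2 scale, and the palbociclib rise in CAMA-1 was lost without DMSO replicate 3 and in DESeq2. GLA, the α-galactosidase that degrades globotriaosylceramide, was at 10.2, 11.4 and 9.19 CPM with DMSO in CAMA-1, 13.5, 11.6 and 14.4 CPM with abemaciclib and 9.63, 13.7 and 12.9 CPM with palbociclib, and neither difference passed. In ZR-75-1 GLA was at 12.1, 19.6 and 15.2 CPM with DMSO, 41.1, 42.7 and 37.9 CPM with abemaciclib and 49.1, 43.7 and 38.3 CPM with palbociclib. GLA thus rose by 1.36 with abemaciclib (SE 0.176, adjusted p = 5.5e-09), and its rise with palbociclib was 1.47 (SE 0.172, adjusted p = 6.9e-10). GLA shares its 3′ end with RPL36A on the opposite strand, and the counting was not stated to use strand.

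GUSB, β-glucuronidase (chr7:65960684-65982215, minus strand), moved in opposite directions. In CAMA-1 it was at 53.3, 63.0 and 59.7 CPM with DMSO, 33.1, 32.2 and 29.99 CPM with abemaciclib and 32.0, 35 and 34.0 CPM with palbociclib. Those libraries did not overlap, and GUSB fell by 0.92 (SE 0.132, adjusted p = 2.3e-07) and by 0.83 (SE 0.128, adjusted p = 9.8e-07) on the log2 scale. In ZR-75-1 it started lower, at 27.8, 24.2 and 20.4 CPM with DMSO, and reached 26.5, 31.6 and 33.2 CPM with abemaciclib and 38.2, 34.6 and 34.5 CPM with palbociclib. The palbociclib rise of 0.56 passed (adjusted p = 0.0068) but not once DMSO replicate 3 was left out (0.45, adjusted p = 0.062), and the abemaciclib value of 0.32 did not pass. GUSB has pseudogene copies, of which GUSBP1 and GUSBP2 held 132 and 75 counts summed over all libraries, so its reads could be split among them.

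Of the remaining glycosidases, GLB1, the β-galactosidase, rose with both drugs in CAMA-1 (0.87, adjusted p = 2.1e-09, and 0.76) and with abemaciclib in ZR-75-1 (0.60), where palbociclib gave 0.38 without passing (adjusted p = 0.054). HEXA, a subunit of the hexosaminidase that degrades GM2 ganglioside, rose with abemaciclib in both lines (0.76 in CAMA-1 and 0.42 in ZR-75-1). The ZR-75-1 call of HEXA was lost without DMSO replicate 3 or abemaciclib replicate 1 and was not made by DESeq2. MANBA, the β-mannosidase, rose in ZR-75-1 by 1.12 (adjusted p = 3.1e-08) and 0.79 and stood at -0.04 and 0.08 in CAMA-1. MAN2B1, an α-mannosidase, had 5 counts at most in any library and was not tested. An annotated gene on its strand shares the last 1000 bases of its 3′ end.

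**Figure D2:**
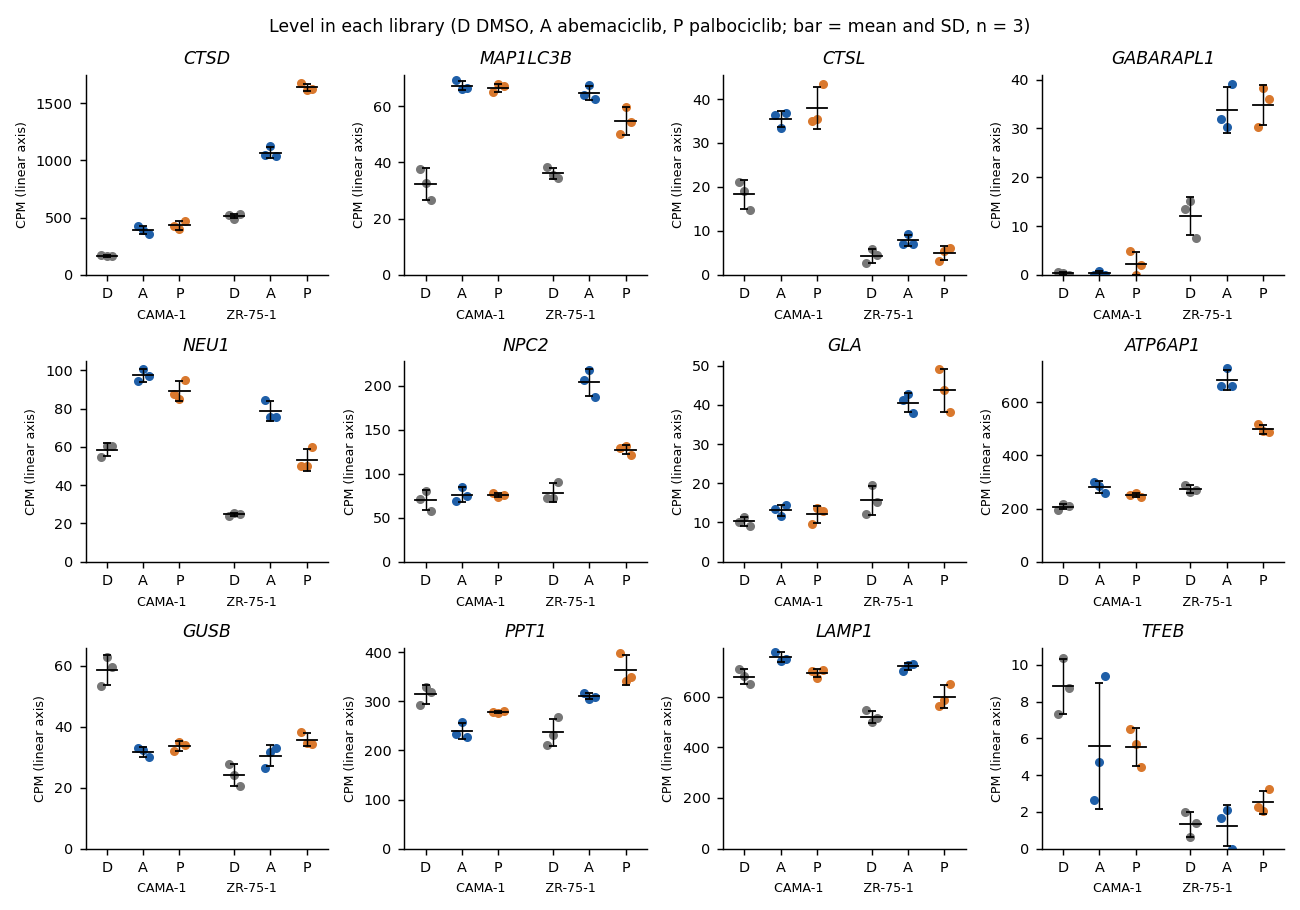
CPM of 12 members in each of the 18 libraries (linear axis from 0), with D for DMSO, A for abemaciclib and P for palbociclib, 3 points per group and a bar for the mean and SD. CTSD, MAP1LC3B and NEU1 rise in both lines, NPC2, GLA and GABARAPL1 in ZR-75-1, and GUSB and PPT1 lie below DMSO in CAMA-1 and above it with palbociclib in ZR-75-1.

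All 6 lipid-handling members rose with both drugs in ZR-75-1. NPC2, the soluble protein that hands cholesterol to NPC1 (chr14:74476192-74494177, minus strand), was at 72.0, 72.1 and 90.9 CPM with DMSO, 206, 218 and 187 CPM with abemaciclib and 129, 131 and 122 CPM with palbociclib. NPC2 rose by 1.38 with abemaciclib (SE 0.096, adjusted p = 4.8e-18), more than the 0.70 measured with palbociclib (SE 0.098, adjusted p = 8e-08). In CAMA-1 it was at 71.5, 80.0 and 58.1 CPM with DMSO, 68.8, 85.0 and 74.7 CPM with abemaciclib and 77.5, 74.0 and 75.8 CPM with palbociclib, and the groups overlapped. NPC1, its membrane-bound partner, which overlaps RMC1 on the opposite strand, rose only with abemaciclib in ZR-75-1 (0.70, adjusted p = 0.014), a call that DESeq2 did not make and that was lost without DMSO replicate 3 or abemaciclib replicate 1.

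PPT1, the thioesterase that removes palmitate from proteins (chr1:40072710-40097260, minus strand), was the only member called in opposite directions in the lines with both drugs. In CAMA-1 it was at 294, 330 and 320 CPM with DMSO, 235, 258 and 227 CPM with abemaciclib and 279, 276 and 280 CPM with palbociclib. In ZR-75-1 it was at 212, 231 and 267 CPM with DMSO, 317, 305 and 309 CPM with abemaciclib and 399, 342 and 351 CPM with palbociclib. No drug group overlapped its DMSO group, below it in CAMA-1 and above it in ZR-75-1. With abemaciclib PPT1 fell by 0.42 in CAMA-1 (SE 0.074, adjusted p = 8.3e-06) and rose by 0.39 in ZR-75-1 (adjusted p = 8.5e-05). With palbociclib it fell by 0.21 in CAMA-1 (SE 0.072, adjusted p = 0.021) and rose by 0.62 in ZR-75-1 (adjusted p = 6.1e-09). The palbociclib fall in CAMA-1 was lost without DMSO replicate 2 or without palbociclib replicate 1 or 2 (adjusted p 0.058 to 0.099), with no filter on low counts and in the fit of all 18 libraries.

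PSAP, the precursor of the saposins that present glycolipids to their hydrolases, was at 371, 356 and 410.4 CPM with DMSO in CAMA-1, 615, 543 and 528 CPM with abemaciclib and 552, 552 and 586 CPM with palbociclib. In ZR-75-1 it was at 345, 306 and 286 CPM with DMSO, 521, 501 and 483 CPM with abemaciclib and 432, 439 and 442 CPM with palbociclib. All 4 differences were free of overlap and lay between 0.48 and 0.68 on the log2 scale. ASAH1, acid ceramidase, rose by 0.72 and 0.35 in ZR-75-1, the latter lost in DESeq2 and without DMSO replicate 2 or palbociclib replicate 1 or 3. SMPD1, acid sphingomyelinase, rose by 1.08 and 0.91 there, and LIPA, which hydrolyses cholesteryl esters, by 0.79 and 0.77. None of these 3 passed in CAMA-1, where SMPD1 stood at 0.53 (adjusted p = 0.056) with abemaciclib.

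LAMP1 and LAMP2 are the main glycoproteins of the lysosomal membrane. LAMP1 (chr13:113297239-113323672, plus strand) was at 709, 682 and 649 CPM with DMSO in CAMA-1, 778, 743 and 751 CPM with abemaciclib and 702, 676 and 704 CPM with palbociclib, and neither drug passed. In ZR-75-1 LAMP1 was at 548, 501 and 518 CPM with DMSO, 704, 728 and 730 CPM with abemaciclib and 565, 586 and 652 CPM with palbociclib. The abemaciclib rise was 0.46 (SE 0.069, adjusted p = 2e-07), and the palbociclib rise of 0.20 (adjusted p = 0.023) was lost without DMSO replicate 2 or 3 or palbociclib replicate 3 (adjusted p 0.073 to 0.21).

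LAMP2 was at 92.0, 98.1 and 96.3 CPM with DMSO in CAMA-1, 138, 133 and 125 CPM with abemaciclib and 121, 110.1 and 99.998 CPM with palbociclib. ZR-75-1 libraries had it at 121, 116 and 123 CPM with DMSO, 220.0, 232 and 236 CPM with abemaciclib and 162, 180.1 and 149.9 CPM with palbociclib. LAMP2 rose by 0.43 with abemaciclib in CAMA-1 and by 0.93 (adjusted p = 1.4e-13) and 0.44 in ZR-75-1, while palbociclib in CAMA-1 gave 0.18 without overlap of libraries and without passing. CD63, a tetraspanin of late endosomes and exosomes, rose by 0.30 and 0.35 in ZR-75-1 and stood at -0.04 and -0.06 in CAMA-1. SCARB2, the receptor that carries glucocerebrosidase to lysosomes, was at 169.9, 159.8 and 176 CPM with DMSO in CAMA-1, 180.0, 152 and 167 CPM with abemaciclib and 147, 139.7 and 152 CPM with palbociclib. Only the palbociclib libraries lay clear of DMSO, and that fall of 0.24 (adjusted p = 0.019) was lost in the fit of all 18 libraries and without DMSO replicate 3 or palbociclib replicate 1 or 2, while in ZR-75-1 SCARB2 was at 62.5, 69.0 and 61.8 CPM with DMSO, 76.6, 74.3 and 70.6 CPM with abemaciclib and 65.9, 54.9 and 75.1 CPM with palbociclib and did not pass. MCOLN1, the calcium channel TRPML1 whose promoter is printed above, had 3 to 14 counts per library and was not tested. For ZR-75-1 the libraries read 1.23 to 2.62 CPM with DMSO, 2.99 to 4.86 CPM with abemaciclib and 1.68 to 2.945 CPM with palbociclib, and an exon of PNPLA6 overlaps its 3′ end.

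In the proton pump, ATP6AP1, an accessory subunit that assists V-ATPase assembly, had the largest log2 fold changes in ZR-75-1, and ATP6V1A those in CAMA-1. ATP6AP1 was at 195, 216 and 209.6 CPM with DMSO in CAMA-1, 301, 284 and 258 CPM with abemaciclib and 251, 258 and 244 CPM with palbociclib. Its level in ZR-75-1 was 290, 262 and 270 CPM with DMSO, 660, 728 and 663 CPM with abemaciclib and 517, 490 and 487 CPM with palbociclib. Every drug group lay above DMSO, by 0.41 and 0.25 in CAMA-1. The ZR-75-1 rise was 1.31 with abemaciclib (SE 0.071, adjusted p = 1.1e-22) while palbociclib gave 0.86 (adjusted p = 8.5e-15). In CAMA-1 the palbociclib rise failed when DMSO replicate 1 was left out (0.20, adjusted p = 0.067).

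ATP6V1A, the catalytic subunit, was at 116, 105 and 99.3 CPM with DMSO in CAMA-1, 158, 119 and 156 CPM with abemaciclib and 134, 139 and 123 CPM with palbociclib. ZR-75-1 libraries had it at 104, 124 and 111 CPM with DMSO, 180, 215 and 187 CPM with abemaciclib and 202, 173 and 167 CPM with palbociclib. Abemaciclib raised it by 0.42 in CAMA-1 and 0.77 in ZR-75-1, and palbociclib by 0.28 and 0.67, all without overlap, and the value of 0.28 was lost in DESeq2 and without DMSO replicate 3 or palbociclib replicate 1 or 2. ATP6V0D1, a subunit of the membrane sector, rose by 0.38 with abemaciclib in CAMA-1 and by 0.54 and 0.51 in ZR-75-1. ATP6V1B2 and ATP6V1H, subunits of the cytosolic sector, did not pass with either drug in either line, with log2 fold changes of -0.12 to 0.09 and 0.23 to 0.31. ATP6V0C, the proton-carrying ring subunit, had 0 counts in 16 of 18 libraries and 2 in the others, and a second annotated gene covers its 3′ end on the same strand.

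Among the autophagy adaptors, MAP1LC3B, the ATG8 protein LC3B that is attached to the autophagosome membrane (chr16:87383953-87404779, plus strand), was at 37.7, 32.5 and 26.7 CPM with DMSO in CAMA-1, 69.1, 66.1 and 66.5 CPM with abemaciclib and 65.0, 67.7 and 67.0 CPM with palbociclib. For ZR-75-1 the libraries read 38.3, 35.6 and 34.5 CPM with DMSO, 64.0, 67.4 and 62.4 CPM with abemaciclib and 49.9, 59.7 and 54.5 CPM with palbociclib. It rose without overlap by 1.04 (adjusted p = 6.7e-09), 1.03 (adjusted p = 8.6e-09), 0.83 (adjusted p = 4.5e-07) and 0.59 (adjusted p = 0.00032). Its near-copy MAP1LC3B2 held 239 counts over all libraries.

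SQSTM1, the cargo receptor p62, rose least of the 9 members called throughout. It was at 206, 184 and 194 CPM with DMSO in CAMA-1, 228, 245 and 236 CPM with abemaciclib and 259, 211 and 215 CPM with palbociclib. Its level in ZR-75-1 was 282, 308 and 304 CPM with DMSO, 349, 368 and 325 CPM with abemaciclib and 374, 330 and 333 CPM with palbociclib. The drug groups lay just above DMSO, by 0.25, 0.20, 0.21 and 0.21 on the log2 scale with adjusted p of 0.012, 0.042, 0.019 and 0.025. Each of the 4 calls was lost on leaving out 1 of at least 2 libraries. For abemaciclib these were DMSO replicate 2 or abemaciclib replicate 2 in CAMA-1, and DMSO replicate 1 or abemaciclib replicate 1 or 2 in ZR-75-1. For palbociclib they were DMSO replicate 2 or 3 or palbociclib replicate 1 in CAMA-1, and DMSO replicate 1 or palbociclib replicate 1 in ZR-75-1. MRNIP overlaps its 3′ end on the opposite strand.

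GABARAPL1, another ATG8 protein (chr12:10212458-10223128, plus strand), had few counts in CAMA-1. ZR-75-1 libraries had it at 13.4, 15.0 and 7.60 CPM with DMSO, 31.9, 30.2 and 39.1 CPM with abemaciclib and 30.3, 38.3 and 35.9 CPM with palbociclib. With no overlap, it rose by 1.46 with abemaciclib (SE 0.202, adjusted p = 3e-08), close to the 1.51 of palbociclib (SE 0.198, adjusted p = 1.5e-08). In CAMA-1 the libraries held 2, 1 and 0 counts with DMSO, 0, 2 and 0 with abemaciclib and 20, 0 and 6 with palbociclib, which was too few to test, and the palbociclib libraries differed among themselves.

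The transcription factors themselves did not pass. TFE3 was at 13.7, 20.4 and 15.6 CPM with DMSO in CAMA-1, 16.7, 18.0 and 17.2 CPM with abemaciclib and 17.6, 16.2 and 11.6 CPM with palbociclib. In ZR-75-1 TFE3 was at 22.3, 16.3 and 12.1 CPM with DMSO, 22.9, 21.2 and 20.9 CPM with abemaciclib and 21.0, 22.4 and 17.1 CPM with palbociclib. The groups overlapped in all 4 comparisons, and the 95% intervals of its log2 fold change reached from -0.57 to 0.78. TFEB was at 7.35, 10.4 and 8.73 CPM with DMSO in CAMA-1, 2.65, 4.72 and 9.37 CPM with abemaciclib and 6.498, 5.69 and 4.42 CPM with palbociclib. Its log2 values of -0.70 (adjusted p = 0.12) and -0.68 (adjusted p = 0.13) did not pass, although the palbociclib libraries all lay below DMSO. In ZR-75-1 TFEB had 0 to 11 counts per library, which corresponded to 0 to 3.24 CPM, and was not tested.

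Members with an E-box core in a promoter window were called higher in ZR-75-1 in 8 of 8 tested cases with each drug, and in CAMA-1 in 5 of 8 with abemaciclib and 4 of 8 with palbociclib. Members with a window and no such match were called higher in 12 and 11 of 18 in ZR-75-1 and in 7 and 6 of 18 in CAMA-1. Among all genes tested, 17.9% and 14.5% were called higher in ZR-75-1 and 20.3% and 18.4% in CAMA-1, and these are counts on few genes, given as a description. The members with a match include CD63, CTSD and LAMP1, which held 27.8%, 11.6% and 11.1% of the members' counts. Smaller changes can pass at higher counts, and the part of this in the split was not tested.

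The next question was whether the lines responded differently, which was tested as the difference in log2 fold change between them, ZR-75-1 minus CAMA-1, in one fit of all 18 libraries. With abemaciclib the difference was positive for 12 of 36 members (33.3%) and negative for 1 (2.78%), against 8.19% and 10.0% of 11987 genes. With palbociclib it was positive for 11 (30.6%) and negative for 0, against 10.0% and 10.3% of genes. DESeq2 also called 0 members lower for palbociclib, and 4 were lower at an unadjusted p under 0.05. With upper-quartile scaling 1 member was called lower. Not every called member was positive without CAMA-1 DMSO replicate 1 or 3, ZR-75-1 DMSO replicate 1 or ZR-75-1 palbociclib replicate 1 or 2. The 36 included GABARAPL1 and TFEB, each of which passed the filter through the line with more counts and was called for neither drug. The smallest p with abemaciclib belonged to ATP6AP1 (difference 0.88, SE 0.102, adjusted p = 5.6e-10), NPC2 (1.26, SE 0.152, adjusted p = 1.6e-09) and PPT1 (0.79, SE 0.11, adjusted p = 9.4e-08). With palbociclib it belonged to PPT1 (0.80, SE 0.109, adjusted p = 4e-08), GUSB (1.37, SE 0.203, adjusted p = 3.4e-07) and ATP6AP1 (0.58, SE 0.102, adjusted p = 1.1e-05).

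The difference was positive with both drugs for CD63, GLA, GUSB, MANBA, NEU1, PPT1, NPC2 and ATP6AP1. For GUSB and PPT1 the sign came from a fall in CAMA-1 together with a higher value in ZR-75-1, and the fall of GUSB was the larger of its changes. NEU1 differed by 0.94 (adjusted p = 1.5e-05) with abemaciclib and 0.50 with palbociclib, and GLA by 0.99 and 1.24. The abemaciclib difference of GLA was lost without ZR-75-1 DMSO replicate 1 (0.83, adjusted p = 0.051). LAMP1, LAMP2, CTSB and ASAH1 passed for abemaciclib, with differences of 0.31, 0.47, 0.62 and 0.52, and CTSA, CTSD and CTSF for palbociclib, with 0.45, 0.29 and 0.46. Several palbociclib differences were fragile. With no filter on low counts those of CTSA, CTSD, CTSF, MANBA and NEU1 did not pass. That of NEU1 was also lost without replicate 1 of DMSO or replicate 3 of palbociclib in ZR-75-1 (adjusted p = 0.061 and 0.069), and that of CTSD without replicate 1 of DMSO or 2 of palbociclib in CAMA-1 or replicate 1 of palbociclib in ZR-75-1 (adjusted p 0.055 to 0.073). MANBA lost its call without replicate 1 or 2 of DMSO or 1 of palbociclib in CAMA-1, or without replicate 1 or 2 of DMSO or 2 of palbociclib in ZR-75-1 (adjusted p 0.073 to 0.12). CTSA lost it without replicate 3 of DMSO or of palbociclib in CAMA-1, or without replicate 1 or 3 of DMSO or of palbociclib in ZR-75-1 (adjusted p 0.051 to 0.11). CTSZ had the negative difference, -0.93 with abemaciclib (adjusted p = 0.012), and that call was lost without ZR-75-1 DMSO replicate 3 (-0.78, adjusted p = 0.066). MAP1LC3B passed for neither drug, at -0.24 (95% interval -0.60 to 0.12) with abemaciclib and -0.47 (interval -0.82 to -0.11, adjusted p = 0.055) with palbociclib. SQSTM1 also passed for neither, at -0.06 (interval -0.28 to 0.16) and -0.02 (interval -0.24 to 0.20).

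**Figure D3:**
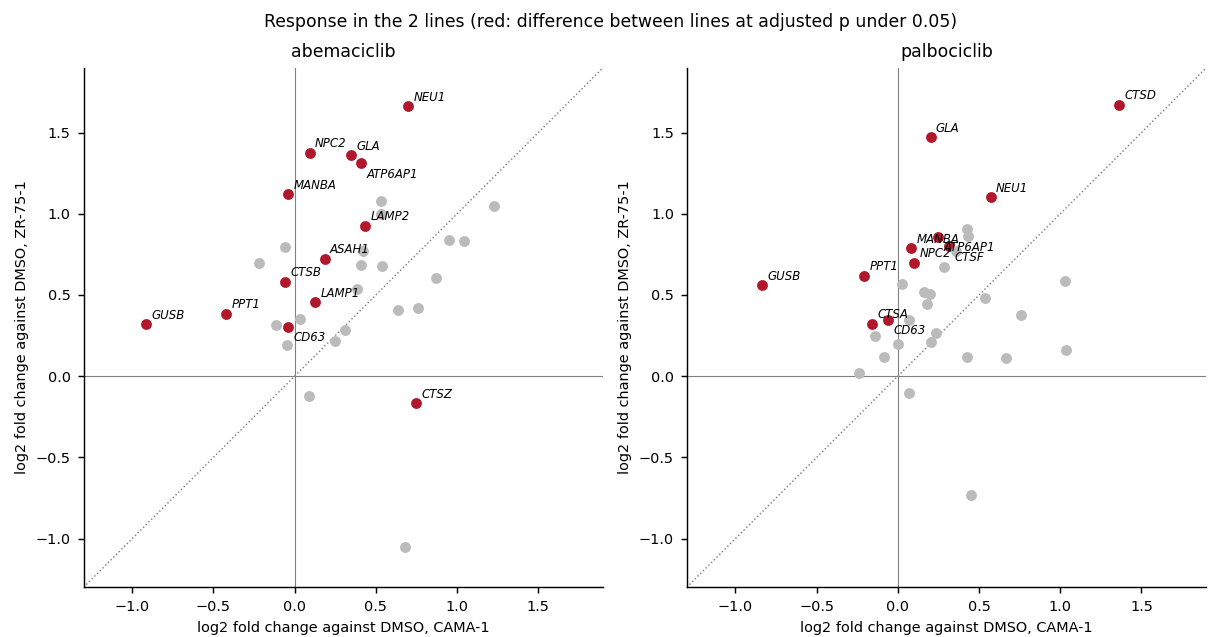
Log2 fold change against DMSO in ZR-75-1 (vertical) against that in CAMA-1 (horizontal) for each member tested in both lines, with abemaciclib on the left and palbociclib on the right. Red, named points differed between the lines at an adjusted p under 0.05 and the dotted line marks equal responses. Except for CTSZ with abemaciclib, the named members lie above the dotted line, GUSB and PPT1 to the left of 0.

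The drugs were compared directly at the matched dose of 500 nM and time of 5 days. In CAMA-1, 0 of 35 members differed between abemaciclib and palbociclib, where 2.33% of all genes did. At an unadjusted p under 0.05, 6 members were higher and 1 lower with abemaciclib, and DESeq2 called 0. The 95% interval of the difference lay within 0.5 of 0 on the log2 scale for 26 of the 35 members and was wider for NPC1, CTSH, TPP1, GLA, HEXA, SMPD1, LIPA, TFEB and TFE3. Differences of 0.48 or less were measured in either direction, the largest for TPP1 (interval 0.07 to 0.89).

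In ZR-75-1, 7 of 35 members were higher with abemaciclib than with palbociclib and 2 lower, against 5.23% and 7.94% of genes. NPC2 was higher by 0.68 (SE 0.09, adjusted p = 5.6e-08), NEU1 by 0.56, LAMP2 by 0.48, CTSB by 0.47, ATP6AP1 by 0.45 (adjusted p = 8.9e-07), ASAH1 by 0.38 and LAMP1 by 0.26. The lower ones were CTSD, at -0.62 (SE 0.064, adjusted p = 3.4e-11), and PPT1, at -0.23 (adjusted p = 0.034). The PPT1 call was not made by DESeq2 or with upper-quartile scaling and was lost without palbociclib replicate 1 or any abemaciclib replicate, and that of ASAH1 without abemaciclib replicate 1 or 3 or palbociclib replicate 2. Of the 26 members that did not pass, 16 had an interval within 0.5 of 0. For MAP1LC3B and GABARAPL1 the difference was 0.24 (interval 0.00 to 0.48) and -0.05 (interval -0.40 to 0.29).

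**Figure D4:**
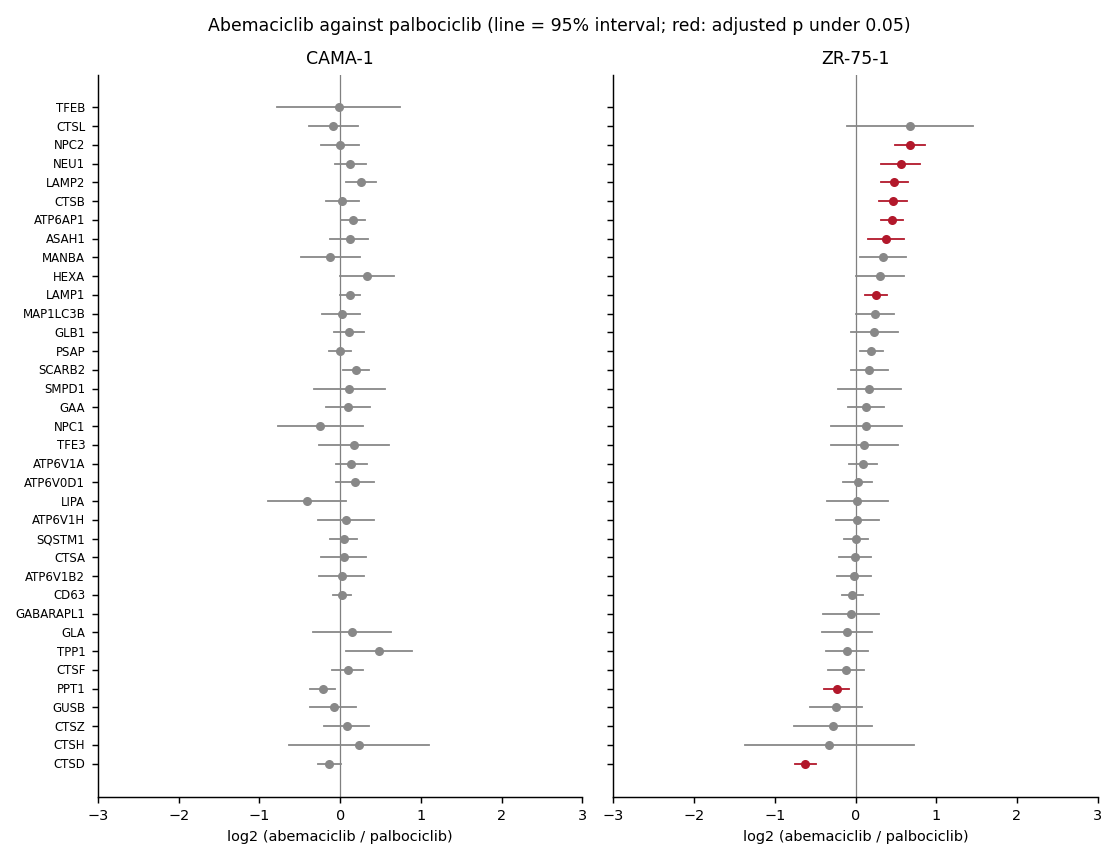
Log2 ratio of abemaciclib to palbociclib for each member in CAMA-1 (left) and ZR-75-1 (right), with its 95% interval, ordered by the ratio in ZR-75-1 with members untested there at the top. Red marks an adjusted p under 0.05, which no member reached in CAMA-1, while in ZR-75-1 NPC2 and NEU1 stand on the abemaciclib side and CTSD on the palbociclib side.

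The lines also differed before treatment. With DMSO, 14 of 36 members were higher in ZR-75-1 than in CAMA-1 (38.9%) and 11 lower (30.6%), against 31.5% and 29.8% of all genes, shares close to the background. These counts include GABARAPL1 among the higher and TFEB among the lower, each of which passed the filter through the line where it was higher. The lines differ in origin and any difference in handling cannot be told apart from the line. GABARAPL1 was at least 13.6-fold higher in ZR-75-1, counted against a floor of 3 counts in each CAMA-1 library. CTSD was 3.10-fold higher (log2 difference 1.63, adjusted p = 7.4e-29), TPP1 2.59-fold, and the pump subunits ATP6V0D1, ATP6V1B2 and ATP6V1H 2.06-, 2.09- and 2.03-fold. TFEB was also called lower in ZR-75-1, with 6, 2 and 4 counts there against 23, 31 and 38 in CAMA-1, and it passed the filter of that fit through its CAMA-1 counts, so no fold is given. CTSL (-2.05), SCARB2 (-1.39), GUSB (-1.28) and NEU1 (-1.24) were also lower. The call for GLA (0.62) was lost without CAMA-1 DMSO replicate 3 or ZR-75-1 DMSO replicate 2.

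**Figure D5:**
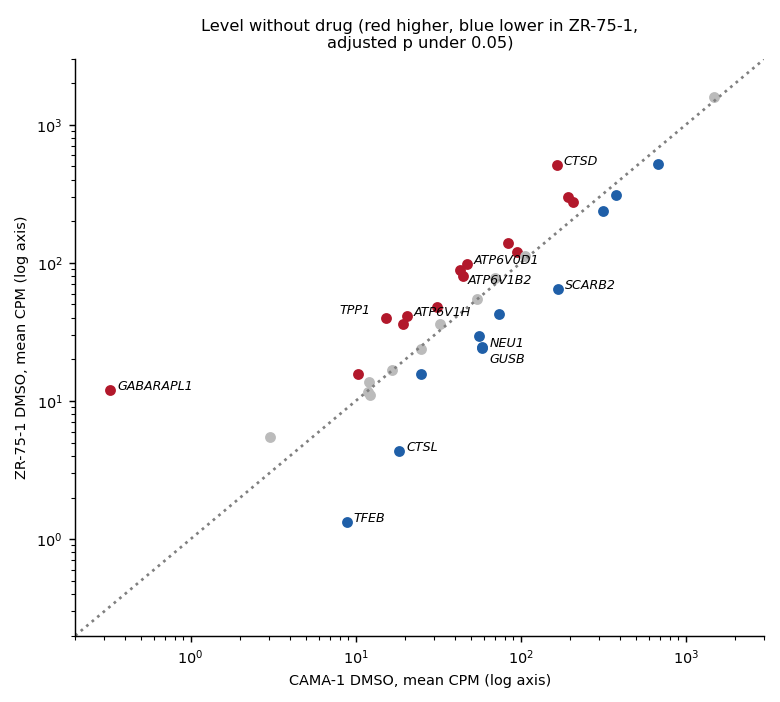
Mean CPM of each tested member with DMSO in ZR-75-1 (vertical) against CAMA-1 (horizontal), 3 libraries each, on log axes. Red members were higher and blue members lower in ZR-75-1 at an adjusted p under 0.05, the dotted line marks equal levels, and names are given where the log2 difference exceeded 1. GABARAPL1 stands far above the line and TFEB far below it.

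A further 7 lists of lysosome and autophagy genes, 136 genes in all, put the members in context. With abemaciclib 34 of 120 tested rose and 13 fell in CAMA-1, and 43 of 118 rose and 6 fell in ZR-75-1. With palbociclib 26 rose and 9 fell in CAMA-1 and 39 rose and 5 fell in ZR-75-1. For comparison with these counts and those of the single lists, 20.3% of all CAMA-1 genes rose with abemaciclib and 18.4% with palbociclib, while 20.1% and 18.7% fell. Among all ZR-75-1 genes 17.9% rose with abemaciclib and 14.5% with palbociclib, while 18.3% and 13.4% fell. A larger share of other lysosomal hydrolases than of all genes rose in each comparison with DMSO. In ZR-75-1, 14 of 22 tested rose and 1 fell with abemaciclib and 10 rose and 0 fell with palbociclib, and in CAMA-1 the counts were 9 and 1, and 6 and 1, of 23. CTSO, a cysteine cathepsin, rose in CAMA-1 from 3.83 to 17.9 and 16.1 CPM in the group means (2.22 and 2.08 on the log2 scale). IDUA, the iduronidase of glycosaminoglycan breakdown, was called higher with abemaciclib in ZR-75-1, at 10.3 CPM against 1.34 CPM with DMSO in the group means. Its DMSO level was near that of 3 counts and it passed the filter through drug-treated libraries, so no fold is given.

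Other proton pump subunits rose in 7 of 12 tested and fell in 0 with each drug in ZR-75-1, led by ATP6AP2 (0.84) with abemaciclib and ATP6V0A1 (0.89) with palbociclib. In CAMA-1 they rose in 4 of 12 with each drug and fell in 2 and 1, with ATP6V1G1 up by 0.81 and ATP6V1C1 at -0.79 with abemaciclib. Other lysosomal membrane proteins rose in 5 and 4 of 17 in CAMA-1 and in 5 and 5 of 17 in ZR-75-1, where none fell and CLCN7, a chloride-proton exchanger, rose by 1.16 with abemaciclib. In CAMA-1, 2 of them fell with abemaciclib, among them TPCN2, a channel of endolysosomes (-0.69, adjusted p = 0.005), and LAPTM4B fell with palbociclib (-0.53, adjusted p = 6e-06). Of 13 genes of enzyme sorting, abemaciclib raised 5 in CAMA-1 and 4 in ZR-75-1 and palbociclib 1 and 3. In this list 1 gene fell with abemaciclib in CAMA-1 and 0 in the other comparisons with DMSO. GNPTG, a subunit of the enzyme that starts the mannose 6-phosphate tag, was up by 1.36 (adjusted p = 4e-14) with abemaciclib in ZR-75-1.

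Of 24 genes of the core autophagy machinery tested, 4 rose and 3 fell with each drug in CAMA-1, and 6 rose and 3 fell with abemaciclib and 7 rose and 1 fell with palbociclib in ZR-75-1. WIPI1, which binds phosphoinositide on the forming autophagosome, rose in CAMA-1 from 12.5 to 45.8 and 48.0 CPM (1.85 and 1.93) and by 1.22 with each drug in ZR-75-1, from 20.6 to 48.0 CPM with palbociclib. ATG4D, a protease of ATG8 proteins, fell by 0.88 and 0.65 in CAMA-1 and by 0.94 with abemaciclib in ZR-75-1. Of 9 other ATG8 proteins and cargo receptors tested, 5 rose and 1 fell with each drug in CAMA-1, led by OPTN (1.18 and 1.35), and 4 rose in ZR-75-1 with each drug while 0 fell with abemaciclib and 1 with palbociclib. Genes of mTORC1 and TFEB control on the lysosome moved both ways, with 2 to 3 of 21 or 22 rising and 2 to 3 falling in each comparison. TSC1, an inhibitor of mTORC1 signalling, rose in CAMA-1 (0.99 and 0.86) and FNIP2, a folliculin partner, was lower in ZR-75-1 (-2.13 and -1.70). RHEB fell in CAMA-1 with abemaciclib (-0.53) and PPP3CA with palbociclib (-0.60). RRAGB was called higher in ZR-75-1 with abemaciclib, at 5.18 CPM against 2.17 CPM with DMSO in the group means. LAMTOR3 rose there with palbociclib (0.58).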

How the data were processed

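RNA of 18 libraries (QuantSeq 3′ kit) was counted per gene by the authors: reads were trimmed with BBDuk, aligned to hg38 with STAR 2.7.5b and assigned with featureCounts 2.0.1. The deposited values are raw counts. The labels and the methods name different strands of the kit, and strand, multimapping and molecular identifier settings are not given in the sources used here, so members with near-copies or overlapping genes are less certain and counting intervals and floors cover counting error only. The study describes the replicates as biologically independent.

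Counts were tested with edgeR 4.0.16 (R 4.3.3): filterByExpr, TMM scaling and a two-sided quasi-likelihood F test, with Benjamini-Hochberg adjustment over all genes, called at 0.05. The 9 libraries of a line were fitted together (11053 and 11017 genes, 8.12% and 8.30% biological coefficient of variation). Comparisons between lines used all 18 libraries (11987 genes). Intervals are 95% t intervals of the fit. The scripts were tested on simulated data.

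The members, lists and tests were chosen with earlier results of these data known. Values in every library are given for LAMP1, LAMP2, TFEB, TFE3, SQSTM1, GABARAPL1 and MAP1LC3B, for members called alike in all 4 comparisons with DMSO or oppositely in the lines, for the 3 largest rises and falls per comparison (mean of at least 10 counts), and for the 3 smallest p of each difference between lines. From each further list the called genes with the largest rise and fall could be named. CTSB, CTSZ, TPP1 and the other members are given by their values or ranges. Gene positions come from GENCODE release 44 on GRCh38. Of the gene rows, 60445 identifiers were found in the name table. Alternatives were RLE and upper-quartile scaling, no filter, a filter of 10 counts in 3 libraries, DESeq2 1.42.0, a replicate block, removal of mitochondrial genes, 1 fit of all libraries, and leaving out each library.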

Additional observations from a re-analysis of the deposited data

Results flagged for a closer look

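The response of 16 members differed between the lines in the test of the difference itself (the ZR-75-1 log2 fold change less the CAMA-1 one, edgeR quasi-likelihood test, adjusted p under 0.05). For abemaciclib these were LAMP1 (0.31), LAMP2 (0.47), CD63 (0.32), CTSB (0.62), CTSZ (-0.93), GLA (0.99), GUSB (1.21), MANBA (1.14), NEU1 (0.94), PPT1 (0.79), ASAH1 (0.52), NPC2 (1.26) and ATP6AP1 (0.88). For palbociclib they were CD63 (0.38), CTSA (0.45), CTSD (0.29), CTSF (0.46), GLA (1.24), GUSB (1.37), MANBA (0.68), NEU1 (0.50), PPT1 (0.80), NPC2 (0.57) and ATP6AP1 (0.58). Positive values mean a higher signed log2 fold change in ZR-75-1, which for GUSB and PPT1 includes a fall in CAMA-1. In the same fit 8.19% of all genes were higher and 10.0% lower for abemaciclib, and 10.0% and 10.3% for palbociclib. The share of mitochondrial counts moved beside these values, with group means of 15.8% to 24.8% in CAMA-1 and 19.0% to 20.2% in ZR-75-1. With those genes removed, 17 members were called for abemaciclib and 12 for palbociclib, against 13 and 11 with them kept.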

How the results depend on the processing

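No called member changed sign under any alternative. Of 142 calls over the 9 comparisons, 29 were lost under at least 1 alternative, 28 of them on leaving out a library and 9 in DESeq2, and 25 of 176 values that had not passed did so under at least 1. Counts of called members kept within 1.5 times of the reported ones, except that with no filter 6 members in place of 11 passed for the palbociclib difference between lines, and that the 18-library fit called 1 member lower with abemaciclib than with palbociclib in CAMA-1. Leaving out single libraries gave 17 to 20 called members for abemaciclib and 11 to 16 for palbociclib in CAMA-1, 23 to 28 and 21 to 24 in ZR-75-1, and 12 to 18 and 9 to 12 for the differences between lines.

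The median log2 fold change with abemaciclib in CAMA-1 was 0.29 with no filter, 0.33 with at least 10 counts in 3 libraries, 0.28 in DESeq2, 0.36 with the replicate block and 0.36 in the 18-library fit. The median of abemaciclib against palbociclib in ZR-75-1 was 0.13 with upper-quartile scaling, 0.13 with no filter and 0.14 in DESeq2. On leaving out single libraries the medians ranged from 0.28 to 0.36 (abemaciclib) in CAMA-1, from 0.61 to 0.69 (abemaciclib) and 0.45 to 0.51 (palbociclib) in ZR-75-1, and for abemaciclib against palbociclib from 0.031 to 0.104 in CAMA-1 and 0.047 to 0.135 in ZR-75-1. The no-filter and DESeq2 medians also take in members that were too sparse to test in the filtered fits. The cause of these shifts was not tested.

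The replicate numbers did not pair the libraries: same-numbered libraries correlated at -0.08 to 0.01 in CAMA-1 and -0.03 to 0.01 in ZR-75-1, with 0 of 9 pairs over 0.1 in either. With the number as a block 2 calls were lost, SQSTM1 with palbociclib in CAMA-1 (0.20, adjusted p = 0.053) and the palbociclib difference of CTSA (0.45, adjusted p = 0.052). Scalings moved the median of all genes by at most 0.05. At 3 counts per 0.723 to 1.30 CPM of unscaled totals, ATP6V0C, MAN2B1, MCOLN1, TFEB in ZR-75-1 and GABARAPL1 in CAMA-1 lay too low to test.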
